A study of Mus musculus with 8 samples.

Results

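AMP-activated protein kinase (AMPK) is the cell's energy-sensing kinase, and LKB1 is the kinase that switches it on. The genes described here encode 6 subunits of AMPK and LKB1 itself. They are Prkaa1 and Prkaa2 for the catalytic α subunits, Prkab1 and Prkab2 for the β scaffolds, Prkag1 and Prkag2 for the nucleotide-binding γ subunits, and Stk11 for LKB1. They were picked by gene symbol, 7 of the 55401 gene records in the count table. The difference between the groups in these same libraries was known when they were picked, so their values in that contrast are given as a description, without a test. The remaining γ gene, Prkag3, is reported beside them for completeness.

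The libraries hold RNA of haematopoietic stem cells (HSCs) sorted from mouse bone marrow, the cells that renew themselves and feed all blood lineages. Both groups were C57BL/6 mice aged 8 weeks that carried floxed Nynrin alleles, and each had 4 libraries from about 3000 sorted cells and 5 ng of cDNA; another passage of the series text names fewer cells. The Nynrin CKO group also carried Tie2-Cre, whose promoter is active in endothelium as well as in blood cells. The control group had no Cre and is labelled wild type. Cre was thus present in the deleted group only, and its presence and the loss of Nynrin cannot be told apart. The series title links Nynrin to HSC function and to the mitochondrial permeability transition pore. Whether each library is a separate mouse is not in the labels, so the spread between libraries may be partly technical.

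AMPK works as a complex of one α, one β and one γ subunit. The γ subunit binds AMP, ADP or ATP, and a fall in cellular energy favours phosphorylation of a threonine in the activation loop of α, which LKB1 carries out together with its partners STRAD and MO25. Active AMPK slows fatty acid and protein synthesis and promotes autophagy and mitochondrial renewal. In mice, deletion of Stk11 in blood cells is known to exhaust HSCs, in part independently of AMPK.

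The site at which LKB1 acts is shown here because it is the part of the α subunits that joins the members into one pathway. The stretch runs over 81 coding bases in each gene, spans the intron between exons 4 and 5, and has the codon of the activating threonine in capitals. It was read from the GENCODE M21 transcripts, on the mm10 build, at chr15:5168706-5170002 on the plus strand for Prkaa1 and at chr4:105049348-105051208 on the minus strand for Prkaa2. The threonine is codon 183 in the Prkaa1 transcript and codon 172 in that of Prkaa2.
Prkaa1: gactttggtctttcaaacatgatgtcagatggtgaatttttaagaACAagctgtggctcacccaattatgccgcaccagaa
Prkaa2: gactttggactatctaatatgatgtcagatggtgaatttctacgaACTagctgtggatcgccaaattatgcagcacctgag
Of the 81 bases, 68 were identical, or 84.0%, and all 27 codons encoded the same amino acid in both genes. Even so, the longest identical run between any Prkaa1 and Prkaa2 transcript was 35 bases, against 23 bases for Prkab1 and Prkab2 and 15 bases for Prkag1 and Prkag2. Reads longer than these runs differ between the paralogs.

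Whole-series measurements set how the members can be read. Library totals ran from 36942835 to 56437299 counts. Nynrin, the deleted gene, averaged 37.3 ± 8.56 CPM (read counts scaled to a common library total with TMM factors) over controls, and its mean over the 4 Nynrin CKO libraries was 10.4 ± 2.49 CPM (both SD, n = 4). The libraries fell into sets that cut across the groups: olfactory and vomeronasal receptor genes, which HSCs are not known to use, summed to 177 to 216 CPM in control 4 and Nynrin CKO 3 and 4, and to 872 to 1449 CPM in the other 5. Nynrin CKO 3 and 4 also held 4082 to 4094 CPM of granulocyte and monocyte markers, against 453 to 502 CPM in Nynrin CKO 1 and 2 and 216 to 340 CPM in controls. Marker sums of some other lineages were higher in all 4 Nynrin CKO libraries. Those of megakaryocytes and platelets overlapped, at 108.5 to 325.6 CPM for controls against 137.9 to 343.1 CPM. Endothelial markers overlapped too, at 109 to 138 against 122 to 244 CPM. Erythroid markers summed to 117 to 148 CPM for controls against 169 to 304 CPM, and of these genes only Car1 and Klf1 lay apart. B cell markers summed to 43.4 to 51.9 against 105 to 194 CPM. Jchain (0.73 to 15.4 against 36.4 to 141 CPM) and Cd79b held most of that sum, and Ms4a1 and Vpreb1 overlapped. T and NK cell markers summed to 51.8 to 81.6 against 140 to 271 CPM. Most of this was Nkg7, at 45.89 to 77.65 against 133 to 267 CPM, and the other genes of that list overlapped. The part of these markers in the differences of Prkaa2, Prkag1 and Prkab1 was not tested. Mitochondrial transcripts took 9.86 and 9.90% of counts in Nynrin CKO 4 and 3, against 5.98 to 7.44% elsewhere. Nynrin CKO 1 and 2 were alike, with a biological coefficient of variation (BCV) of 0.246 between them, as were 3 and 4 with 0.246. Across these pairs the BCV was 0.804 to 0.814. It was 0.323 to 0.351 among controls 1 to 3 and 0.739 to 0.842 between each of them and control 4. The SD and SE values below count 4 Nynrin CKO libraries, and with each pair summed no gene was called. Over the 12 HSC markers the sum was 4124 to 4792 CPM for controls against 4681 to 5770 CPM for Nynrin CKO, with none of the 12 at 0 in every library. Counts of Xist were 177719 and 224087 for controls 3 and 4, against 245 to 471 elsewhere. High Xist was thus seen in controls only, so Xist class and group are partly confounded. With Xist class as a term, no member was called. In these bulk libraries, fewer cells of a type and less RNA per cell cannot be told apart.

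In the controls the summed transcripts of the γ class were more abundant than those of β, and those of β more than those of α, at means of 64.3, 20.9 and 9.80. These are levels in CPM per kilobase of the longest transcript, the scale on which genes are compared. Prkag1 was the highest member at 42.7 ± 3.26 CPM per kilobase (SD, n = 4, as for the levels that follow). Prkag2 followed at 21.5 ± 2.38 and Prkab1 at 19.0 ± 2.44 CPM per kilobase, and the ranges of these neighbours overlapped. Prkaa1 had 8.44 ± 1.12 CPM per kilobase, Stk11 3.90 ± 0.53, Prkab2 1.86 ± 0.19 and Prkaa2 1.37 ± 0.14. Apart from Prkag2 and Prkab1, no neighbours in this order overlapped in range. With summed exon lengths in place of the longest transcript, Prkab1 at 12.95 CPM per kilobase moved above Prkag2 at 11.04. Among 27514 tested genes with a length, 94.9% lay below Prkag1 and 52.4% below Prkaa2, the extremes of the members. Prkag3, which in mammals is known mainly from skeletal muscle, had 31, 6, 23 and 2 counts in controls 1 to 4 and 7, 18, 0 and 0 in Nynrin CKO 1 to 4. It did not pass the filter on low counts and was not fitted. Skeletal muscle markers summed to 3.72 to 7.08 CPM in every library.

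Among the members, Nynrin CKO libraries differed from controls mainly by less Prkaa2 and more Prkag1 and Prkab1. All 7 members passed the filter on low counts and were among the 27573 genes fitted with edgeR. Of these, 1 member, Prkag1, was among the genes called higher, a call made for 2.22% of all tested genes. Another, Prkaa2, was among those called lower, a call made for 0.588%. Calls in either direction covered 2.8% of all tested genes. The ranges of the groups did not overlap for 3 members, Prkaa2, Prkag1 and Prkab1, as they did not for 14.3% of all tested genes, 9.52% higher in Nynrin CKO and 4.83% lower. Both member calls were lost when any library other than control 4 was left out, with RLE factors, without a filter and with a replicate term. As the members were chosen with this contrast in view, nothing is read from these counts. The median log2 fold change was -0.15 over the members and -0.09 over all tested genes.

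**Figure D1:**
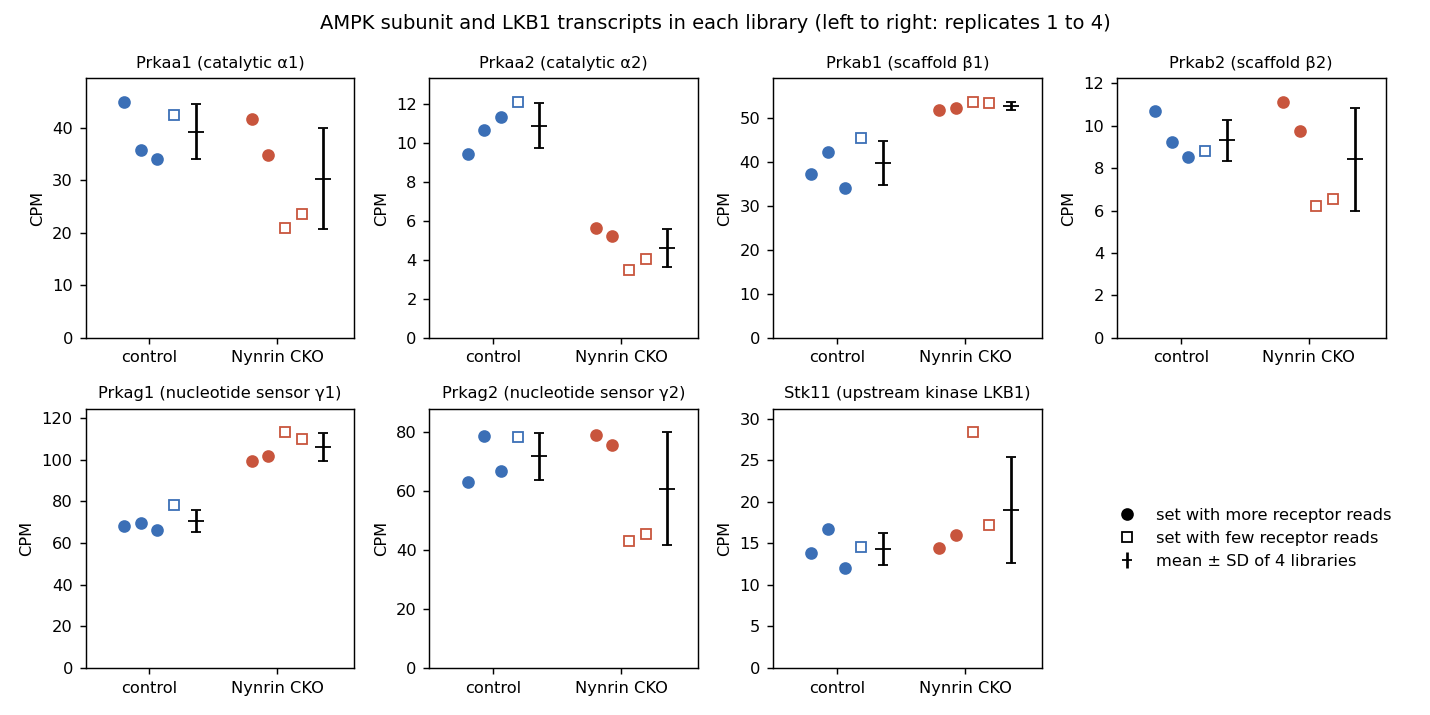
CPM of the 7 members in each library, with replicates 1 to 4 from left to right in each group, filled circles for libraries with more receptor reads, open squares for those with few, and a bar for mean ± SD of 4 libraries. The groups lie apart for Prkaa2, Prkab1 and Prkag1, and Nynrin CKO 3 and 4 lie below Nynrin CKO 1 and 2 for Prkaa1, Prkaa2, Prkab2 and Prkag2.

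Prkaa2 encodes α2, the catalytic isoform best known from muscle and heart. Its gene lies on the minus strand at chr4:105029874-105109890 (mm10). It had 9.42, 10.7, 11.3 and 12.1 CPM in the 4 controls, in order of replicate, and 5.63, 5.22, 3.50 and 4.06 CPM in Nynrin CKO 1 to 4. The lowest control exceeded the highest Nynrin CKO library, and the mean of the deleted group was 42.3% of the control mean. The counts behind these values were 390 to 634 in controls and 159 to 254 in Nynrin CKO. On the log2 scale this difference was -1.24, with a standard error (SE) of 0.20. Nynrin CKO 3 and 4 were lower than Nynrin CKO 1 and 2, which stood at a mean of 5.42 CPM against 3.78 CPM.

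Prkaa1 encodes α1, the main catalytic isoform of blood cells, at chr15:5143861-5181899 on the plus strand. It had 44.9, 35.8, 34.0 and 42.4 CPM in the 4 controls, against 41.7, 34.9, 21 and 23.7 CPM in the Nynrin CKO libraries. Nynrin CKO 1 and 2 lay inside the range of the controls, and Nynrin CKO 3 and 4 lay below every control. Over all libraries the log2 fold change came to -0.37 (SE 0.22).

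Prkab1 encodes β1, one of the scaffolds that hold α and γ together, at chr5:116013586-116024508 on the minus strand. It had 37.2, 42.2, 34.0 and 45.4 CPM in the controls. The Nynrin CKO libraries had 51.7, 52.1, 53.5 and 53.3 CPM. Every Nynrin CKO library was above every control, and the SD was 0.90 CPM in Nynrin CKO against 5.09 CPM in controls. The ratio of the means was 1.33, and the log2 fold change 0.41 (SE 0.11).

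Prkab2, the gene of the other scaffold β2, lies at chr3:97658193-97673812 on the plus strand. Its levels were 10.7, 9.24, 8.51 and 8.82 CPM in the controls, against 11.1, 9.76, 6.19 and 6.56 CPM with Nynrin deleted. The groups overlapped, with Nynrin CKO 1 highest of all libraries and Nynrin CKO 3 lowest. Its log2 fold change, -0.15, was smaller than its SE of 0.22.

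Prkag1 encodes γ1, the most widely expressed nucleotide sensor, at chr15:98812797-98831521 on the minus strand. It had 68.0, 69.6, 66.1 and 78.3 CPM in the controls. In the Nynrin CKO libraries it had 99.2, 101.8, 113 and 110.2 CPM. All 4 deleted libraries were above all 4 controls, and the ratio of the means was 1.51. The log2 fold change of 0.59 had an SE of 0.10, the smallest among the members.

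Prkag2 encodes γ2, known from human mutations that cause heart muscle disease, at chr5:24862744-25100642 on the minus strand. It had 63.0, 78.6, 66.6 and 78.0 CPM in the controls, and 78.7, 75.6, 43.1 and 45.2 CPM with Nynrin deleted. The mean of Nynrin CKO 3 and 4 was 0.57 times that of Nynrin CKO 1 and 2, which were level with the highest controls. The log2 fold change over the 8 libraries was -0.24 (SE 0.21).

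Stk11, at chr10:80115803-80130682 on the plus strand, had 13.8, 16.8, 12.1 and 14.5 CPM in the controls, and 14.4, 16.0, 28.4 and 17.2 CPM in the deleted libraries. Nynrin CKO 3 was the highest library, and Nynrin CKO 1 and 2 lay within the range of the controls. Its log2 fold change was 0.41 (SE 0.22). Stk11 shares 232 exonic bases with Cbarp on the opposite strand, whose counts equalled 15.4% of those of Stk11; whether strand was used in counting is not stated in the labels. Cbarp had 117 counts in Nynrin CKO 3 and 132 in Nynrin CKO 4.

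The isoform makeup of the α and γ classes lay apart between the groups, and that of the β class overlapped. A share within a library does not depend on how libraries are scaled, although it still depends on the lengths assigned to the genes. Where isoforms differ in length, it also carries the trend of fold change on transcript length described below, as do the ratios between classes. Within α, Prkaa1 made up 83.7 to 89.1% of α transcripts per kilobase in controls and 90.9 to 92.7% in Nynrin CKO. Prkag1 made up 64.1 to 68.2% of γ transcripts in controls, 71.7 and 73.0% in Nynrin CKO 1 and 2, and 84.1 and 83.1% in Nynrin CKO 3 and 4. Prkab1 made up 89.3 to 92.5% of β transcripts in controls and 91.8 to 95.4% in Nynrin CKO, and these ranges overlapped.

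**Figure D2:**
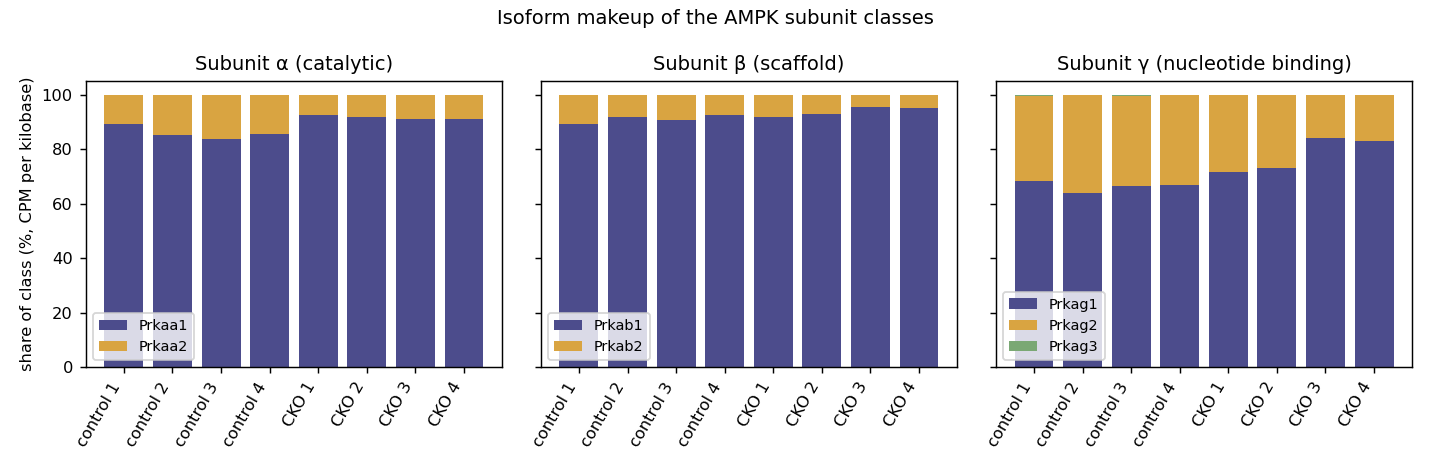
Share of each isoform in the summed CPM per kilobase of its subunit class (percent, vertical axis), one bar per library. Prkaa1, Prkab1 and Prkag1 hold the larger share in every library, and the Prkag1 share is highest in Nynrin CKO 3 and 4 at 84.1 and 83.1%.

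The balance between classes differed between the groups as well. The sum of γ transcripts over the sum of α transcripts, per kilobase, was 5.57 to 7.29 in controls and 8.67 to 16.5 in Nynrin CKO. The β sum over the α sum was 1.84 to 2.45 in controls and 2.79 to 5.43 in Nynrin CKO. In both ratios the groups lay apart, with Nynrin CKO 3 highest and Nynrin CKO 1 the nearest to controls. The α sum itself was 8.74 to 10.8 CPM per kilobase in controls, 9.66 and 8.14 in Nynrin CKO 1 and 2, and 4.95 and 5.60 in Nynrin CKO 3 and 4. The γ sum was 60.2 to 70.8 CPM per kilobase in controls and 80.3 to 84.4 in Nynrin CKO. As raw counts, which carry no library scaling and no division by length, Prkag1 exceeded Prkaa2 by 5.82 to 7.22 times in controls. In Nynrin CKO it did so by 17.6 to 32.3 times. These are the members called higher and lower in the same contrast, so their ratio is no separate result. Their longest transcripts have 1652 and 7969 bases, and the trend on length described below does not cancel in a ratio within a library.

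The members with more transcript in Nynrin CKO were mostly the short ones. Across all expressed genes (mean of at least 1 CPM) the fold change was lower for longer transcripts. The median log2 fold change was 0.38 in the shortest of 5 equal length groups and -0.17 in the longest. The longest transcripts of Prkag1 and Prkab1 have 1652 and 2089 bases, that of Prkaa2 has 7969. Set against the median of its own length group, Prkaa2 was lower by 1.07 on the log2 scale, and 4.26% of the group lay below it. Prkag1 was 0.21 above the median of its group, with 74.3% of the group below it, and Prkab1 0.18 above, with 68.9% below. Stk11 was 0.33 above its group's median, and Prkaa1, Prkab2 and Prkag2 were 0.30, 0.07 and 0.32 below theirs. The part of transcript length in the differences of the members was not tested apart from the correction that follows.

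**Figure D3:**
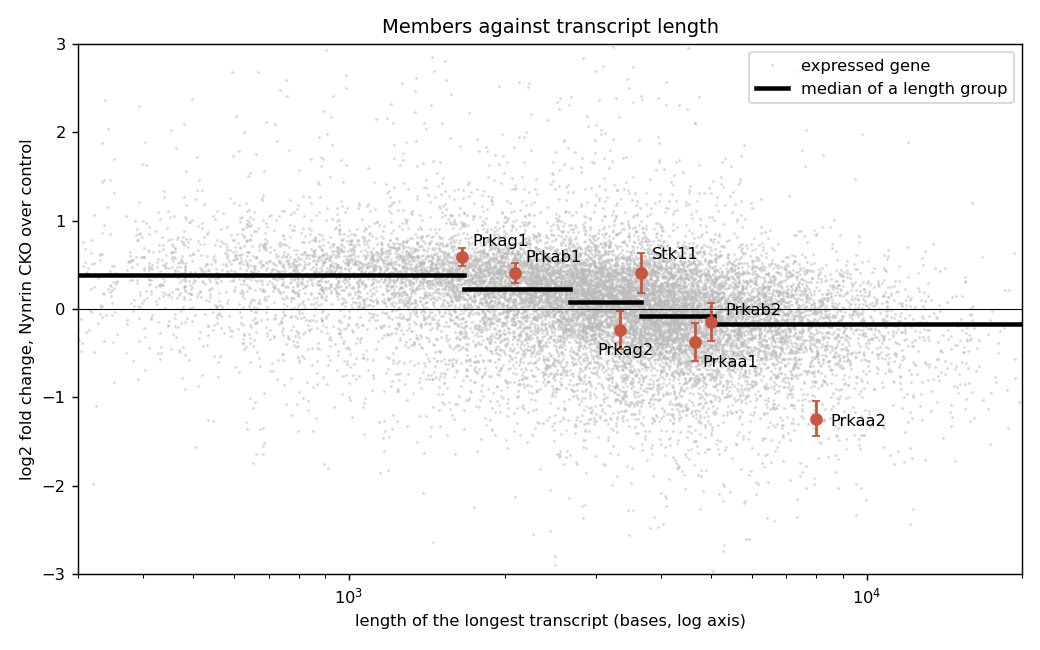
Log2 fold change of Nynrin CKO over control (vertical axis) against the length of the longest transcript in bases (log axis). Grey points are expressed genes within the plotted ranges, black lines the medians of 5 length groups from 0.38 to -0.17, and red points the members with their SE. Prkag1 and Prkab1 lie among the short genes near their medians, and Prkaa2 lies 1.07 below the median of the longest group.

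With a trend on length and GC content removed in each library, Prkaa2 had a log2 fold change of -1.03 (SE 0.22), and neither it nor any other member was called. Prkag1 came to 0.33 (SE 0.12) and Prkab1 to 0.24 (SE 0.13). Stk11 came to 0.57 (SE 0.23), Prkaa1 to -0.28 (SE 0.18), Prkag2 to -0.25 (SE 0.19) and Prkab2 to -0.01 (SE 0.18).

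The log2 fold changes of Prkaa2, Prkag1, Prkab1 and Stk11 had the same sign in both library sets, that of Stk11 within its SE in the set with more receptor reads. Those of Prkaa1, Prkab2 and Prkag2 did not. Among libraries with more receptor reads (3 controls, 2 Nynrin CKO), Prkaa2 had a log2 fold change of -0.95 (SE 0.20) and Prkag1 of 0.57 (SE 0.08). Among those with few receptor reads, control 4 stands alone and is assumed to vary like the others. There Prkaa2 had -1.68 (SE 0.25) and Prkag1 0.51 (SE 0.12). Prkaa1 was at 0.00 (SE 0.15) in the first set and -0.92 (SE 0.20) in the second. Prkag2 was at 0.15 (SE 0.11) and -0.82 (SE 0.15), and Prkab2 at 0.14 (SE 0.19) and -0.47 (SE 0.25). Prkab1 kept a positive sign at 0.46 (SE 0.11) and 0.24 (SE 0.15), as did Stk11 at 0.09 (SE 0.23) and 0.65 (SE 0.31). The differences between sets were not tested. The granulocyte and monocyte markers were far higher in Nynrin CKO 3 and 4 as well, and their part in the lower Prkaa1 and Prkag2 of these libraries was not tested.

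**Figure D4:**
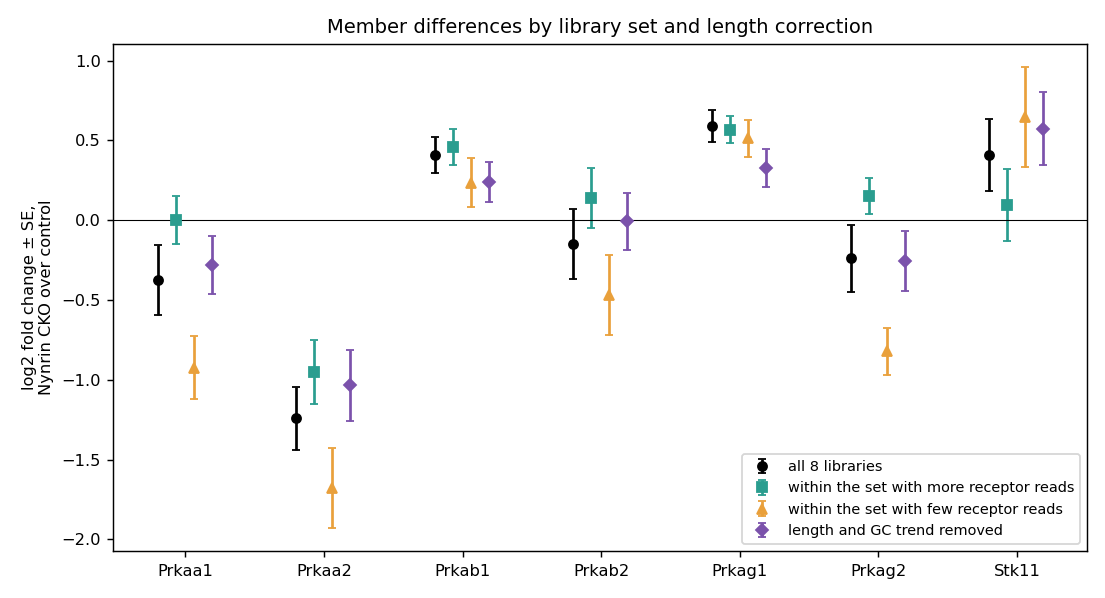
Log2 fold change ± SE of each member (vertical axis) over all 8 libraries, within each library set, and with the trend on length and GC content removed. Prkaa2 is below 0 and Prkag1 above 0 in all 4 estimates, while Prkaa1 and Prkag2 are at 0.00 and 0.15 in the set with more receptor reads and at -0.92 and -0.82 in the set with few.

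Patterns over the 8 libraries were compared as the root-mean-square distance between centred log2(CPM + 1) profiles, over 9270 genes with a mean of at least 10 CPM. Prkab1 and Prkag1 were the closest pair of members at 0.115, followed by Prkaa1 and Prkag2 at 0.185. The genes nearest to Prkag1 were Atg12 at 0.038 and Snx6 at 0.039. Those nearest to Prkab1 were Cdadc1 at 0.037 and Pcgf5 at 0.039. Prkaa1 was nearest to Rai14 at 0.075 and Pdlim5 at 0.084, and Prkag2 to Fkbp9 at 0.049 and Secisbp2l at 0.067. All these distances share the same 8 libraries, the library sets and the trend on length. Prkaa2 and Prkab2 had means under 10 CPM and were not compared.

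The 250 bases before the RefSeq starts of each member (GRCm38.p6, 3 starts for Prkag2) were searched on both strands. The motifs were the ETS core CCGGAAG, the NRF1 core, the E-box with the letters CACGTG, the CCAAT box and the TATA box with the letters TATAAA. Of the members, Prkab1 and Prkag1 were the ones with a window holding the ETS core, once each, and 6.91% of 32851 windows of this length held it. Both stretches are shown with the core in capitals, at chr5:116024447-116024476 for Prkab1 and chr15:98831555-98831584 for Prkag1, each on the minus strand. The Prkab1 stretch lies before its RefSeq start but inside the longer GENCODE gene record.
Prkab1: gctgggcccggCCGGAAGcggaagtggcta
Prkag1: ctcagccaccgCCGGAAGggtgggttcccc
CCAAT was in 33.8% of all windows, and it was found once in the Prkag1 window, 3 times in that of Stk11, and 1 and 2 times in windows of Prkag2. The 2 matches overlap in a single stretch, CCAATTGG, read on both strands. The windows of Prkaa1, Prkaa2 and Prkab2 held none of the 5 motifs. The NRF1 core was in 3.74% of windows, the E-box in 6.02% and the TATA box in 12.4%, and none of these was in a member's window. A match describes letters only. The search followed the closeness of the Prkab1 and Prkag1 profiles in these same libraries. The part of the ETS core in that closeness was not tested. CpG pairs numbered 24 in the Prkab1 window and 12 in the Prkag1 window, against a median of 6 over all windows. The ETS core itself holds a CpG, and its share among CpG-rich windows alone was not counted.

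The wider pathway showed few calls. Of 98 genes in 7 lists around AMPK, 97 were tested, and by edgeR with Benjamini-Hochberg adjustment 2 rose and 1 fell in Nynrin CKO, or 3.09% against 2.8% of all tested genes. Their median log2 fold change was -0.01, against -0.09 over all tested genes. Each list is given in the order of the pathway.

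Upstream of AMPK, none of the 7 LKB1 partners and other AMPK kinases passed, and their median log2 fold change was 0.33. The smallest p-values belonged to Cab39l, a MO25 isoform, at 1.07 (SE 0.34, edgeR adjusted p = 0.117), and Camkk1, a calcium-dependent kinase of the pathway, at -0.44 (SE 0.15, edgeR adjusted p = 0.134). Cab39l was at 104 to 134 CPM over the controls, at 135 and 132 CPM in Nynrin CKO 1 and 2, and at 357 and 355 CPM in Nynrin CKO 3 and 4. Its highest levels were in the libraries with the most myeloid marker counts, whose part in it was not tested, and Cab39l shares exonic bases with Cdadc1 on the opposite strand. Of the 9 regulators and scaffolds none passed, with a median of -0.10. Ppm1f, a phosphatase known to act on AMPK, was at -0.60 (SE 0.20, edgeR adjusted p = 0.138) and Fnip2, a folliculin partner, at -0.63 (SE 0.23, edgeR adjusted p = 0.177).

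Of the 12 AMPK-related kinases that LKB1 also activates, none passed, with a median of 0.12. Mark3, a kinase of cell polarity, came nearest at 0.56 (SE 0.13, edgeR adjusted p = 0.0568), with 11.9 to 13.8 CPM over the controls against 16.1 to 22.0 CPM over Nynrin CKO. Nuak2 was at 0.81 (SE 0.25, edgeR adjusted p = 0.109), with its highest levels, 62.4 and 60.3 CPM, in Nynrin CKO 3 and 4.

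Of 31 tested direct substrates, 1 rose and 1 fell, with a median of -0.08. Acaca, the acetyl-CoA carboxylase that AMPK phosphorylates to slow fatty acid synthesis, fell from 83.5 to 109 CPM in controls to 66.4 to 70.9 CPM in Nynrin CKO (log2 fold change -0.54, SE 0.11, edgeR adjusted p = 0.0431). Becn1, the Beclin 1 subunit of the autophagy lipid kinase, rose from 101 to 126 CPM to 140 to 174 CPM (log2 fold change 0.54, SE 0.12, edgeR adjusted p = 0.0488). Acaca has a transcript of 9513 bases, and with the trend on length and GC content removed its log2 fold change was -0.20, while that of Becn1 was 0.68, and neither passed.

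Among 11 genes of mTORC1, the growth kinase that AMPK restrains, and of its upstream switch, 1 rose and none fell, with a median of 0.15. The riser was Rheb, the small GTPase that activates mTORC1. It had 83.7, 72.3, 79.2 and 76.6 CPM in the controls, against 126, 106, 153 and 142 CPM in the deleted libraries (log2 fold change 0.76, SE 0.13, edgeR adjusted p = 0.0382). Its lowest deleted library exceeded its highest control. The 3 calls, for Acaca, Becn1 and Rheb, held with control 4 left out and were lost when any other library was left out or the trend on length and GC content was removed, where Rheb had a log2 fold change of 0.88. The log2 fold changes were, over the 8 removals of a library, -0.60 to -0.49, 0.44 to 0.63 and 0.69 to 0.86.

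Of 13 regulators of mitochondrial and lysosomal biogenesis none passed, with a median of -0.01. Ppargc1b, a coactivator of mitochondrial genes, was at -0.55 (SE 0.14, edgeR adjusted p = 0.0723), and Tfam, which packages and transcribes mitochondrial DNA, at 0.36 (SE 0.11, edgeR adjusted p = 0.0934). For both genes the groups lay apart. None of 17 enzymes that convert adenine nucleotides passed, with a median of 0.04. Ak6, an adenylate kinase of the nucleus, was at 0.64 (SE 0.15, edgeR adjusted p = 0.0583) and Adk, which makes AMP from adenosine, at 0.48 (SE 0.14, edgeR adjusted p = 0.1). The Ak6 record shares exonic bases with Taf9 and Rad17, so its reads could be divided between records.

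**Figure D5:**
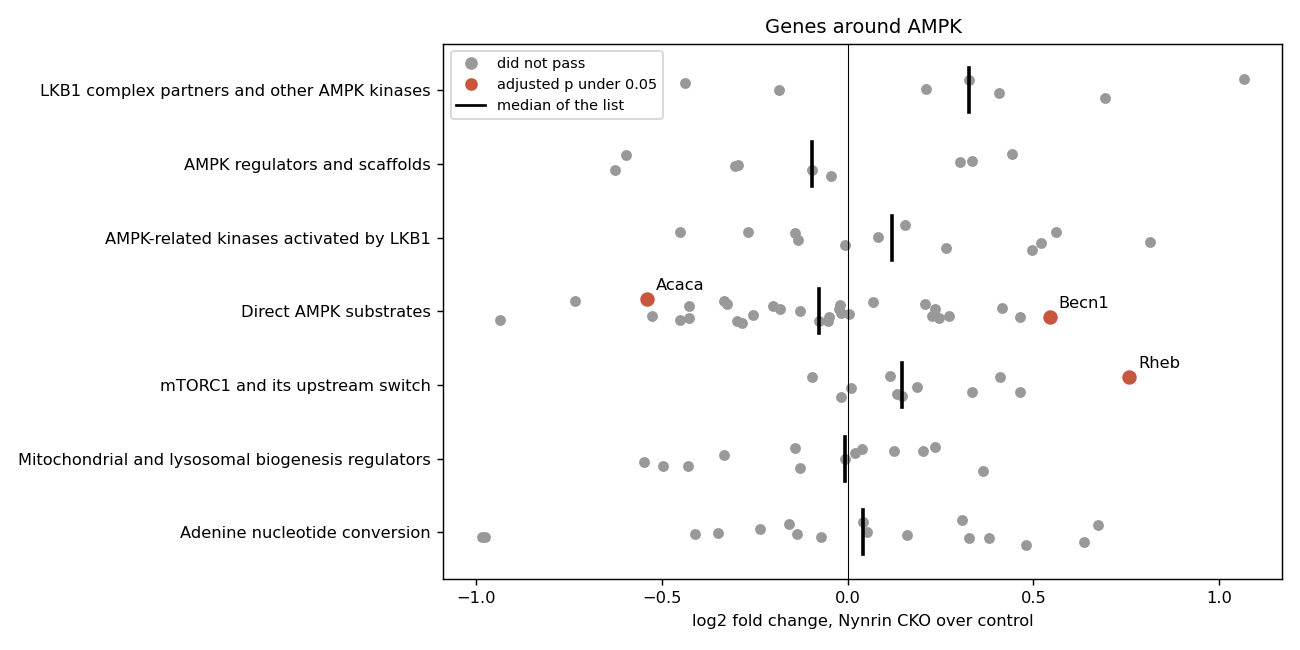
Log2 fold change of Nynrin CKO over control (horizontal axis) for the tested genes of 7 lists around AMPK, 1 point per gene, with a black bar at each list's median. Red points passed at an adjusted p under 0.05 in edgeR, and these are Acaca at -0.54, Becn1 at 0.54 and Rheb at 0.76.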

How the data were processed

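Per the file headers, the deposited table gives a raw count for every gene record in each of the 8 libraries. Coordinates are those of mm10, per the submitters' processing notes. Alignment, counting and strand setting were not given in the sources used here. Members and gene lists were chosen with earlier results of these data known.

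Counts were filtered with filterByExpr, scaled by TMM factors and fitted with the quasi-likelihood F-test (robust) of edgeR 4.0.16 in R 4.3.3, with Benjamini-Hochberg adjustment over 27573 genes and a threshold of 0.05. The fit was tested on simulated independent counts that held no library sets, trend on length or similar pairs of libraries. That simulation therefore does not cover these features of the data. An SE is the log2 fold change over the root of the F statistic. Lengths came from GENCODE M21, in which all 7 members have the deposited coordinates, and 51957 of 55401 records do. Library sets were split at 300 CPM of receptor reads and Xist classes at 100 CPM.

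Named genes were the members, Prkag3 and Nynrin, the passing genes of each list (at most 4) or otherwise the 2 with the smallest p, and the 2 nearest patterns per member. The nearest patterns of Stk11 are not reported here. Of the members and list genes named, Stk11, Cab39l and Ak6 overlap a record holding at least 10% of their counts, and so does Cdadc1, which overlaps Cab39l. Overlaps of the other nearest-pattern genes were not checked.

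Alternatives were other scaling factors, filters, DESeq2 1.42.0, a replicate term, each library left out in turn and summed exon lengths. Library set and Xist class as terms, fits within a set, removal of a spline trend on length and GC content, and sums of similar libraries were chosen after seeing the data.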

Additional observations from a re-analysis of the deposited data

How the results depend on the processing

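The counts of calls changed with most settings, while the directions of 4 members did not. Counts are given as higher, then lower, and as reported they were 611 and 162 genes, 1 and 1 members, and 2 and 1 pathway genes. With RLE factors 13 and 22 genes passed, 0 and 0 members and 0 and 0 pathway genes. With upper-quartile factors these were 225 and 251 genes and 1 pathway gene higher. With total counts, which moved the median of all genes to -0.34, they were 59 and 318 genes, 0 members higher, and 0 and 2 pathway genes. Without a filter 33 and 16 genes passed, 0 and 0 members and 0 and 0 pathway genes. With at least 1 CPM in 4 libraries, 475 genes and 2 pathway genes were lower. DESeq2 called 1656 and 980 genes, 2 members higher, and 7 and 10 pathway genes. Leaving out 1 library gave 1 to 1129 genes higher and 0 to 243 lower, 0 to 2 members higher and 0 to 1 lower, and 0 to 6 pathway genes higher and 0 to 1 lower, the upper ends without control 4. Both member calls were lost in each of the other 7 removals. Over the other 7 removals, at most 4 genes passed as lower.

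Whether the replicate numbers pair the samples was not settled by the correlations. Same-numbered libraries correlated at 0.198, 0.21, -0.256 and 0.387 in their deviations. The highest correlations with other numbers were 0.163, 0.18, 0.28 and 0.378. Number 3 alone thus did not correlate best with itself, and the margins of the others were small. With a replicate block, 0 and 0 genes, 0 and 0 members and 0 and 0 pathway genes passed.

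Of the alternatives chosen after seeing the data, library set as a term gave 1221 and 408 genes. The set with more receptor reads alone gave 1311 and 857 genes, 3 pathway genes lower and a member median of 0.13. Within that set the fit to all libraries gave 2168 and 1025 genes, 2 members higher, 9 and 6 pathway genes and a member median of 0.14, and in the other set that median was -0.47. Xist class as a term gave 4 and 6 genes, correction for length and GC 2 and 2, and sums of similar libraries 0 and 0, with 0 and 0 members and 0 and 0 pathway genes in each. The causes of these shifts were not tested.

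Over all 22 alternatives Prkaa2 ranged from -1.68 to -0.95, Prkag1 from 0.32 to 0.66, Prkab1 from 0.14 to 0.49 and Stk11 from 0.09 to 0.65. Prkaa1 ranged from -0.92 to 0.00, Prkab2 from -0.47 to 0.14 and Prkag2 from -0.82 to 0.15. With summed exon lengths the control levels were 12.95 CPM per kilobase for Prkab1, 32.4 for Prkag1, 11.04 for Prkag2 and 3.12 for Stk11. The share of Prkab1 was then 87.5% in controls and 91.3% in Nynrin CKO, and that of Prkag1 74.4% in controls. The lowest count of a member was 159, for Prkaa2 in Nynrin CKO 3, and counting error adds to the spread between libraries.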

Other observations

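These values were singled out after they were seen. Between Nynrin CKO 3 and 4, with a BCV of 0.246, Stk11 differed 1.65-fold, at 28.4 and 17.2 CPM. Of 9862 genes compared, 2.17% were at least as far apart between these libraries. Prkag1 and Prkag2 differed 1.03-fold and 1.05-fold there.

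Sik1, a salt-inducible kinase that LKB1 activates, was at 62.9 to 84.8 CPM over the controls, at 28.5 and 27.4 CPM in Nynrin CKO 1 and 2, and at 187 and 181 CPM in Nynrin CKO 3 and 4. The Nynrin CKO libraries thus lay on both sides of all controls, and the group difference did not pass (edgeR adjusted p = 0.744, log2 fold change 0.50, SE 0.60).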
